A study of Mus musculus with 15 samples.

Results

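The collagen and laminin genes are the 55 protein-coding genes whose GENCODE M21 symbol is a collagen chain (Col, number, a, number; 44 genes) or a laminin alpha, beta or gamma chain (Lama, Lamb or Lamc and a number; 11 genes), among 38561 genes counted and 21263 protein-coding genes. They were followed in RNA of Purkinje cells (PCs), the output neurons of the cerebellar cortex, cut from sections of mouse cerebellum by laser on the day of birth (P0) and on postnatal days 4, 8, 14 and 21 (P4 to P21); each age has 3 biological replicates, which makes 15 libraries. The labels give the strain as C56/BL6, and no sample carried a treatment or an engineered allele, so that age is the only factor named. From P4 to P21 each sample held 1000 PC bodies, whereas at P0 clusters of PCs were taken from 6 sections, so age and the kind of capture cannot be told apart in the step from P0 to P4. Total counts on genes lay between 3409371 and 7814951 per library, and 3 counts, the limit that a count of 0 allows, correspond to between 0.384 and 0.880 CPM, which is the count scaled to a common library size. Intervals of this kind cover counting error only.

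Collagens are secreted or membrane-anchored proteins whose chains wind around each other in a helix, which needs glycine at a fixed spacing. Laminins are crosses of an alpha, a beta and a gamma chain, and together with the network of collagen IV they build the basement membrane, the sheet that surrounds blood vessels and lines the surface of the brain. In the brain most of this matrix is known to be made by cells of the vessel wall, by meningeal fibroblasts and by astroglia, and some collagens are also made by neurons.

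The glycine spacing separates the 2 groups of genes in the coding sequence itself. In the longest coding sequence of each gene, glycine codons (GGN, where N is any base) recurred with 2 other codons between them for at least 23 and at most 344 repeats in a row in the 44 collagens (median 58.5). The 11 laminins reached 2 or 3 repeats, and 54 of the 21529 other protein-coding genes (0.251%) reached 10 or more. A stretch of 6 such repeats is shown for the 8 collagens that changed over the time course, to show the feature that they share with all 44 collagens. Glycine codons are in capitals, sequences run 5′ to 3′ on the coding strand, and positions are those of GRCm38. The stretches lie in coding exons: exon 7 of 41 of Col18a1 (chr10:77080808-77080861, minus strand), exon 3 of 52 of Col4a1 (chr8:11247042-11247095, minus strand), exon 5 of 48 of Col4a2 (chr8:11398662-11398715, plus strand) and exon 9 of 29 of Col23a1 (chr11:51557471-51557524, plus strand). The others lie in exon 6 of 54 of Col2a1 (chr15:97998545-97998598, minus strand), exon 11 of 67 of Col11a1 (chr3:114099791-114099844, plus strand), exon 9 of 38 of Col25a1 (chr3:130476369-130476422, plus strand) and exon 4 of 4 of Col8a1 (chr16:57628738-57628791, minus strand).
Col18a1: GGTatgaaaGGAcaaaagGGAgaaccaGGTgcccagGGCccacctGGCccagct
Col4a1: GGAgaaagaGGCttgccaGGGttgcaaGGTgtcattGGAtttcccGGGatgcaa
Col4a2: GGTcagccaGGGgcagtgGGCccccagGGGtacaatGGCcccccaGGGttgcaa
Col23a1: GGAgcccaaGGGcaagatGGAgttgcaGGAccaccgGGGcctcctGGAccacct
Col2a1: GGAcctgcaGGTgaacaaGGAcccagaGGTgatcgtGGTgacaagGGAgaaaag
Col11a1: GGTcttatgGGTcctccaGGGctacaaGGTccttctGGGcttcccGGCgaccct
Col25a1: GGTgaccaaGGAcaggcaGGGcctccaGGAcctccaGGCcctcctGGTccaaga
Col8a1: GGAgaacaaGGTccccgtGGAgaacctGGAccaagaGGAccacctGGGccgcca

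The length of the uninterrupted repeat differed between these 8 genes. The fibrillar chains Col2a1 and Col11a1 carried 339 and 338 repeats without a break. The basement membrane chains Col4a1 and Col4a2 reached 40 and 66, the membrane-spanning chains Col23a1 and Col25a1 reached 43 and 40, Col8a1 reached 61, and Col18a1, whose helix is broken into many short pieces, reached 30. In Col2a1, 24 of 54 exons are exactly 54 bases long, the length of 1 printed stretch, against 3 of 41 exons in Col18a1 and 2 of 52 in Col4a1.

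Over the 3 weeks 1 member rose steeply, the main chains of collagen IV fell, and most members were too low and too scattered to show a course. Of the 55 members, 36 passed edgeR's filter on low counts (27 collagens and 9 laminins), among 14293 genes tested. Of the other 19, Col6a4, Col6a5, Col6a6, Col13a1 and Col24a1 had no count in any library, and 14 had between 2 and 113 counts over all libraries. With postnatal day as a number, edgeR's quasi-likelihood test with Benjamini-Hochberg adjustment over all genes called 6 members lower with age (Col4a1, Col4a2, Lama4, Col11a1, Col25a1 and Col8a1), beside 14.1% of all genes, and 1 member higher (Col18a1), beside 12.1%. A member that is high only in young samples passed the filter through those samples. With the time point as a factor, 5 members differed between any time points (Col18a1, Col4a1, Col4a2, Col2a1 and Col23a1), beside 19.3% of all genes. The likelihood ratio test of DESeq2 called 6 members lower, beside 16.1%, and 1 higher, beside 13.3%. Its 6 were not the same set, since Col8a1 was not called there (DESeq2, adjusted p = 0.0745). The share of members called lower was near that over all genes in either tool, and the share called higher was below it. Slopes lay below 0 for 28 of the 36 members (77.8%), against 55.1% of all genes tested, with a median over the members of -0.028 log2 units per day and over all genes of -0.0077. In bulk RNA of this kind, fewer cells of a type and less RNA per cell cannot be told apart.

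**Figure D1:**
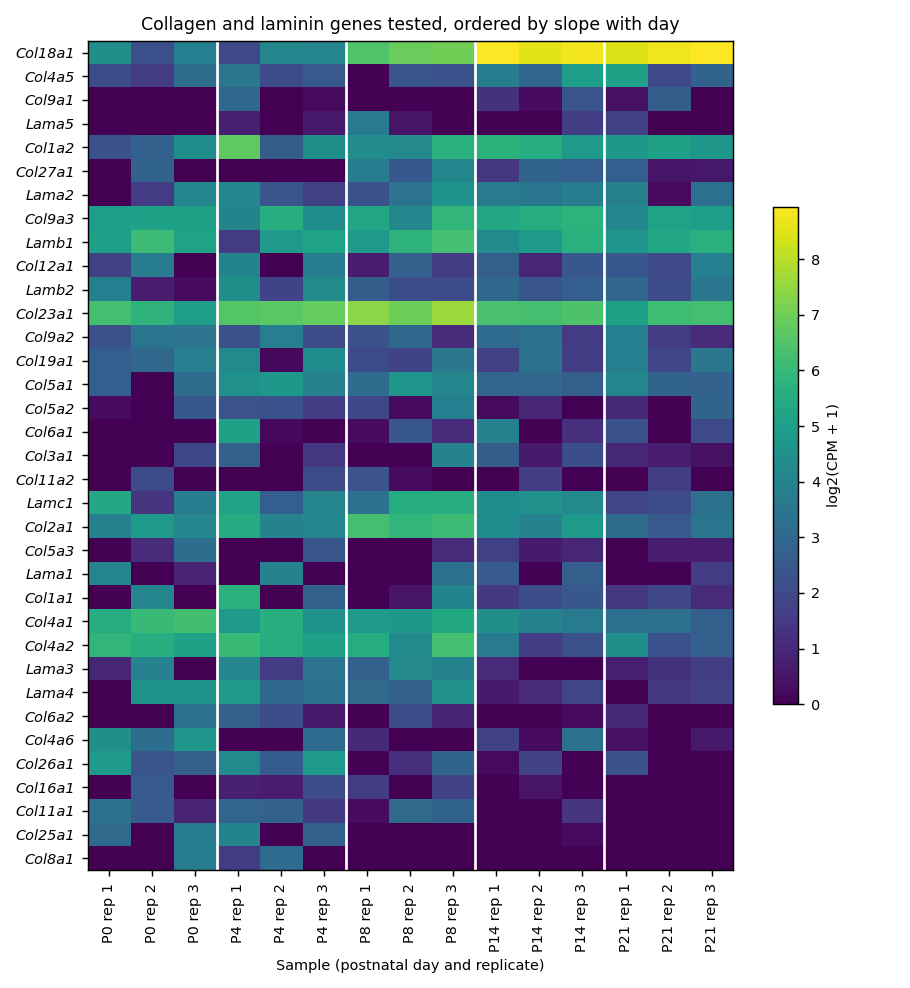
Level of the 36 collagen and laminin genes tested, 1 of them not shown (rows, ordered by slope with postnatal day) in the 15 libraries (columns, white lines between time points), as log2(CPM + 1). Col18a1 in the top row is the brightest cell of each P14 and P21 column and not of the P0 and P4 columns, and many rows hold isolated bright and dark libraries within a time point.

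**Figure D2:**
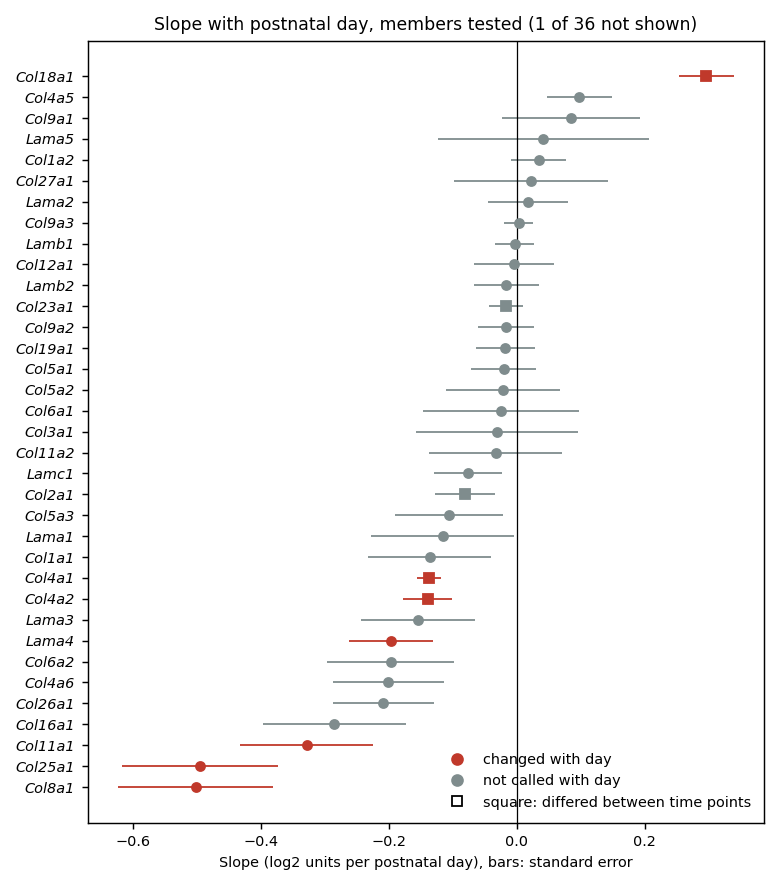
Slope with postnatal day (log2 units per day, bars give the standard error) of the 36 members tested, 1 of them not shown; red marks the 7 members that changed with day, and squares the 5 that differed between time points. Col18a1 alone stands on the right at 0.30, and the widest bars belong to genes seen in few libraries.

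Col18a1 (ENSMUSG00000001435, chr10:77052178-77166548, minus strand) encodes the chain of collagen XVIII, a basement membrane collagen that carries heparan sulphate and releases the fragment endostatin. Its CPM was 20.2, 3.57 and 13.6 in replicates 1 to 3 at P0, 2.94, 16.6 and 15.9 at P4, and 87.3, 118 and 128 at P8. It was 491, 379.8 and 441 at P14 and 352, 432 and 489.7 at P21. The P0 and P4 samples overlapped, every P8 sample lay above them, every P14 and P21 sample lay above P8, and P14 and P21 overlapped. Means were 12.4 ± 8.37 CPM at P0, 111 ± 21.2 at P8 and 437 ± 55.7 at P14 (SD, n = 3). By the ratio of means, the level rose 9.40-fold from P4 to P8 and a further 3.94-fold from P8 to P14, and stood 35.1-fold above P0 at P14.

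The slope of Col18a1 was 0.30 ± 0.04 (SE) log2 units per day (edgeR, adjusted p = 4.26e-05), and it differed between time points (edgeR, adjusted p = 2.12e-06). Between neighbouring ages it rose from P4 to P8 by 3.20 ± 0.52 (SE) log2 units (edgeR, adjusted p = 0.00457) and from P8 to P14 by 1.98 ± 0.49 (adjusted p = 0.0376). From P14 to P21 the change was -0.04 ± 0.47. The later of the 2 called steps lost its call when any 1 library of P8, P14 or P21 was left out (edgeR, adjusted p from 0.0541 to 0.171), with changes between 1.84 and 2.10, and the slope kept its call in all 22 alternatives run.

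The sums of vessel wall markers had lower means at P14 and P21, where Col18a1 was highest, than at each younger age, with ranges that partly overlapped. From P4 to P8, where Col18a1 also rose, both means were higher at P8, with overlapping ranges. They were 55.3 ± 19.0 and 80.5 ± 23.2 CPM for endothelial and 132 ± 79.5 and 160 ± 52.8 for mural markers (SD, n = 3). The 7 endothelial markers summed to between 45.8 and 140.2 CPM at P0, between 38.0 and 58.9 at P14 and between 25.8 and 39.4 at P21. The 8 mural markers summed to between 81.3 and 169 at P0, between 71.4 and 83.8 at P14 and between 34.1 and 74.5 at P21. All 6 PC markers rose with day, beside 12.1% of all genes tested. Their sum went from between 4549 and 6007 CPM at P0 to between 36886 and 46640 at P21. Oligodendrocyte markers also rose (5 of 5), from between 13.7 and 35.9 CPM summed at P0 to between 396 and 845 at P21. Of the 6 markers of Bergmann glia and astrocytes 2 rose, Hopx from 10.4 ± 5.91 to 144 ± 31.4 CPM and Slc1a3 from 1439 ± 218 to 2511 ± 535 (P0 and P21, SD, n = 3), and 1 fell (Fabp7). Of 3 granule neuron markers tested (4 listed) 1 rose, Gabra6, from 0.0641 ± 0.111 CPM at P0 to 63.5 ± 16.9 at P21. The part of these cells in the course of Col18a1 was not tested. Col15a1, the other multiplexin and the nearest relative of Col18a1, had counts in 4 libraries only and 36 counts in all.

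**Figure D3:**
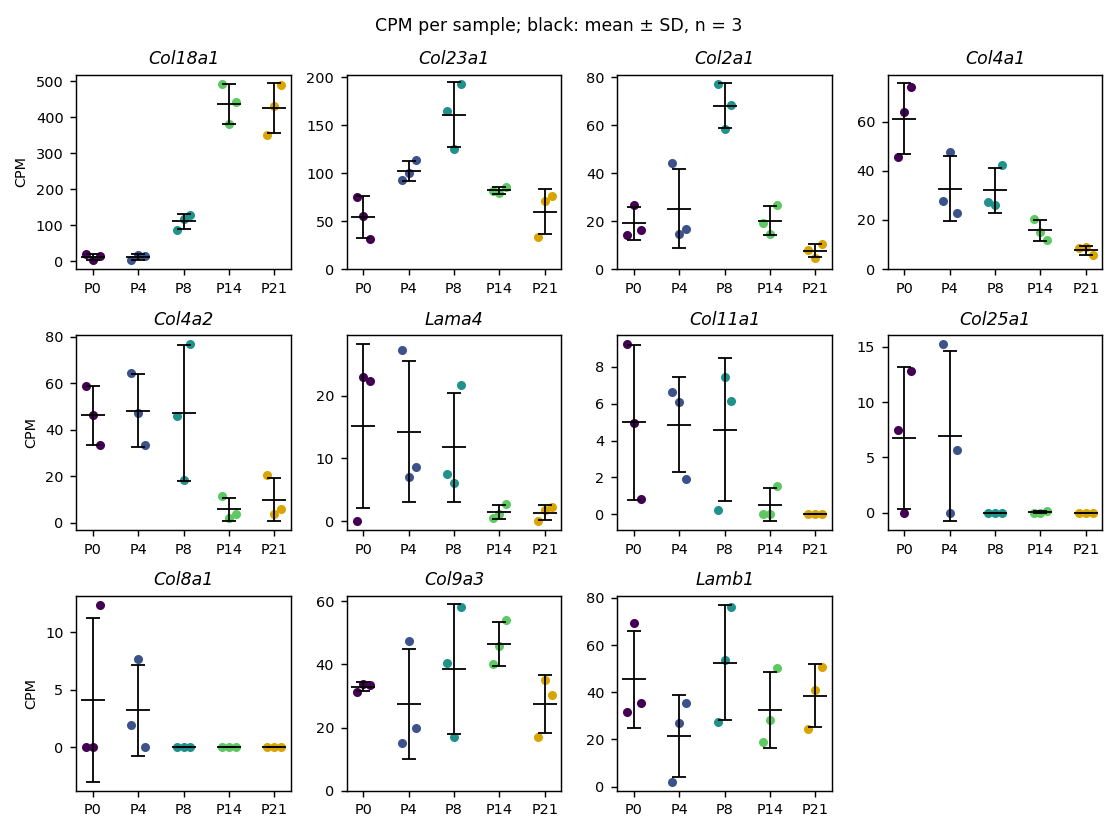
CPM of 11 named members in each library (points, coloured by time point) with the mean and SD of 3 replicates (black), each gene on its own linear axis. Col18a1 stays under 21 CPM until P4 and reaches 352 to 491 at P14 and P21, Col4a1 declines, Col23a1 and Col2a1 are highest at P8, and Col25a1 and Col8a1 are at or near 0 from P8 on.

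The rise of 1 gene changed the make-up of the matrix transcripts. Col18a1 took 2.80% ± 1.93 (SD, n = 3) of all collagen and laminin counts at P0 and 2.52% ± 1.83 at P4, then 16.0% ± 3.45 at P8 and 54.5% ± 2.59 at P14, and reached 60.3% ± 3.80 at the last age. The summed CPM of all members was 452 ± 15.9 at P0 and 702 ± 82.3 at P21. Without Col18a1 the sum was 439 ± 24.1 at P0, 601 ± 197 at P8 and 365 ± 37.0 at P14, and at P21 it was 277 ± 23.6, so the other 54 members together were lower at P21 than at P0 in every sample. Per kilobase of exon, Col18a1 had the highest mean over the 15 samples (26.2 RPKM), before Col23a1 (16.2), Col9a3 (8.97), Col4a2 (4.98), Col4a1 (4.20) and Lamb1 (3.87). Of the 36 members tested, 20 had a mean under 1 RPKM.

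**Figure D4:**
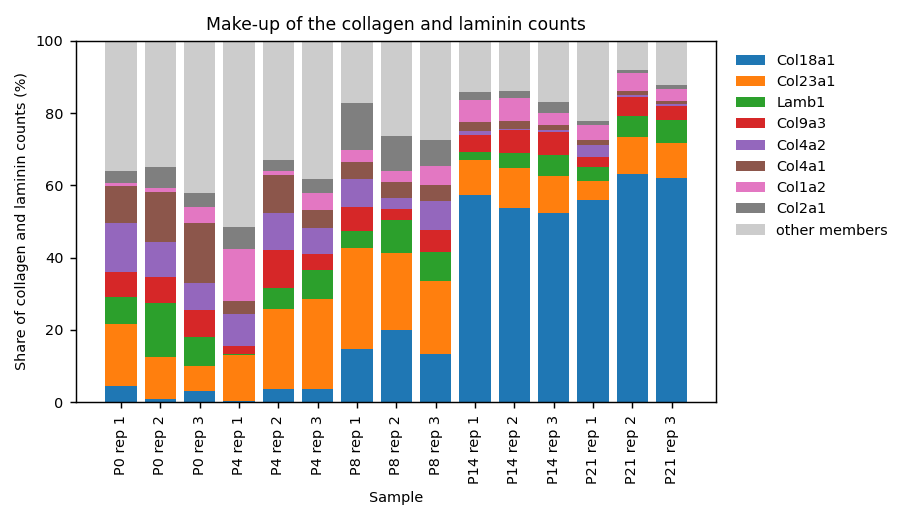
Share (%) of the collagen and laminin counts of each library that fell on the 8 members with the most counts, and on the remaining members together (grey). Col18a1 (blue) takes under 5% in each P0 and P4 library and more than 52% in each P14 and P21 library.

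Col4a1 (ENSMUSG00000031502, chr8:11198423-11312826, minus strand) and Col4a2 (ENSMUSG00000031503, chr8:11312805-11449287, plus strand) are neighbours read in opposite directions, and their products combine in the collagen IV of nearly all basement membranes. The CPM of Col4a1 was 45.6, 64.1 and 74.0 at P0, 27.7, 47.6 and 22.6 at P4, and 27.4, 26.1 and 42.5 at P8. It was 20.4, 14.9 and 11.9 at P14 and 8.68, 8.90 and 5.60 at P21. Each P21 sample lay below each P14 sample, and each P14 sample below every younger one. The mean at P0 was 7.92-fold that at P21, and the slope was -0.14 ± 0.02 (SE) log2 units per day (edgeR, adjusted p = 2.26e-05). No step between neighbouring ages passed the test for Col4a1. The CPM of Col4a2 was 58.8, 46.2 and 33.4 at P0, 64.3, 47.1 and 33.2 at P4, and 46.0, 18.3 and 76.7 at P8. It was 11.4, 2.11 and 3.65 at P14 and 20.4, 3.81 and 5.76 at P21. The younger ages overlapped, as did P14 and P21, and 1 P21 sample lay above the lowest P8 sample. The slope was -0.14 ± 0.04 (edgeR, adjusted p = 0.0113), and the step from P8 to P14 fell by 3.03 ± 0.74 (SE) log2 units (edgeR, adjusted p = 0.0378).

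The step of Col4a2 lost its call when P8 replicate 1 or 3 or P14 replicate 2 or 3 was left out (edgeR, adjusted p from 0.0978 to 0.191). The exons of both genes share 22 bases, and exons of Col4a2 share 43 bases with an antisense gene. Whether strand was used in counting is not given in the sources used here, so reads in these bases could not be assigned with certainty.

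Some markers of vessel cells also fell. Of 7 endothelial markers 1 fell with day (Pecam1), and of 7 mural markers tested (8 listed) 3 fell (Rgs5, Abcc9 and Anpep). None of either list rose, and over all genes tested 14.1% fell and 12.1% rose. Anpep had counts in 3 libraries only, all of them at P0 or P4. Means of Flt1 and Pdgfrb, which were not called, were 9.90 and 7.71 CPM at P0 and 16.0 and 9.27 at P21, and Vtn, also not called, had a higher mean at P21 than at P0. At P21 the endothelial markers Kdr and Tek were at 0 in 2 of 3 libraries each, whereas Flt1 lay between 13.8 and 17.8 CPM. Col4a1 and Col4a2 summed to 107 ± 2.94 CPM at P0 and 17.7 ± 9.84 at P21 (SD, n = 3), beside the endothelial sum given above. Within time points the deviations of this sum from its mean correlated with those of the endothelial sum at Pearson's r = 0.24 over 15 samples (exact permutation test within time points, two-sided, p = 0.283, adjusted over 14 pairs 0.567; Spearman's rho = 0.14, p = 0.601, adjusted 0.793), and at r = 0.13 once the 2 samples most distant from the median were dropped. Outside the vessel lists, 1 of 2 meningeal fibroblast markers tested also fell with day (Islr, edgeR, adjusted p = 0.000362). So did Ttr, the 1 choroid plexus marker tested (edgeR, adjusted p = 0.0231). The meningeal sum had means of 31.7 CPM at P0, 69.3 at P4 and 0.876 at P21. The part of vessel, meningeal or choroid plexus cells in the decline was not tested.

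**Figure D5:**
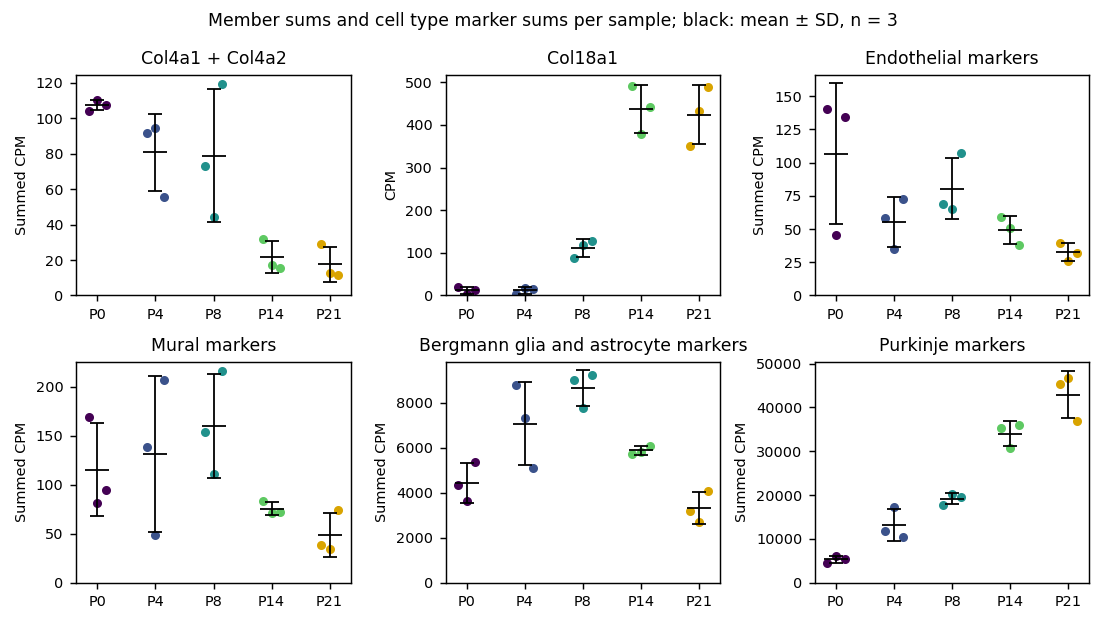
CPM per library (points) and mean with SD of 3 replicates (black) of the Col4a1 and Col4a2 sum, of Col18a1 and of 4 sums of cell type markers. The collagen IV sum is at most 31.8 at P14 and P21 and at least 44.4 before, the endothelial sum has its lowest mean at P21, glial markers have their highest mean at P8, and PC markers and Col18a1 are highest at P14 and P21.

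Of the 4 other collagen IV chains, Col4a5 and Col4a6 were tested, and neither was called with day or between time points. Col4a5 had a slope of 0.10 ± 0.05 and Col4a6 one of -0.20 ± 0.09, the latter with counts scattered between libraries of 1 age. Col4a3 and Col4a4, which are among the chains of the kidney filter, had 57 and 2 counts in all.

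Col23a1 and Col2a1 took another course, with their highest levels at P8. Col23a1 (ENSMUSG00000063564, chr11:51289920-51583918, plus strand) encodes a collagen anchored in the cell membrane, and Col2a1 (ENSMUSG00000022483, chr15:97975602-98004695, minus strand) the main fibrillar collagen of cartilage. The CPM of Col23a1 was 75.4, 55.6 and 31.2 at P0, 93.0, 100.4 and 114 at P4, and 165, 126 and 193 at P8. It was 81.7, 78.9 and 85.4 at P14 and 33.0, 70.5 and 76.5 at P21. The CPM of Col2a1 was 14.04, 26.8 and 16.4 at P0, 44.2, 14.6 and 16.6 at P4, 77.2, 58.4 and 68.5 at P8, 19.1, 14.7 and 26.7 at P14, and 8.01, 4.66 and 10.2 at P21. In both genes each P8 sample lay above all 12 others, as in 0.504% of all genes tested, and these were the only 2 of the 36 members tested with this order. Means at P8 were 161 ± 33.7 CPM for Col23a1 and 68.0 ± 9.43 for Col2a1 (SD, n = 3), that is 2.98-fold and 3.57-fold those at P0. They were 1.96-fold and 3.37-fold those at P14. Both differed between time points (edgeR, adjusted p = 0.0111 for Col23a1 and 0.00311 for Col2a1).

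Neither gene was called with day over all 5 ages (edgeR, slopes -0.02 ± 0.03 and -0.08 ± 0.05, adjusted p = 0.698 and 0.230). No single step of either passed edgeR's test, but DESeq2 called the fall of Col2a1 from P8 to P14 (DESeq2, adjusted p = 0.0190). Without P0, the age with the other kind of capture, both fell with day (slopes -0.07 and -0.15, edgeR, adjusted p = 0.0390 and 0.0249). The difference in Col23a1 lost its call without P8 replicate 3 (edgeR, adjusted p = 0.0648). Markers of Bergmann glia and astrocytes also had their highest mean sum at P8. Their sum of 6 genes lay between 7771 and 9260 CPM at P8, between 3615 and 5361 at P0, between 5120.1 and 8797 at P4, between 5742 and 6094 at P14 and between 2686 and 4102 at P21, and all 6 differed between time points. Fabp7, which made up most of the P8 sum, Aqp4 and Gfap had their highest mean at P8, whereas Gdf10, Slc1a3 and Hopx had theirs at P14 (508, 3522 and 169 CPM, against 276, 2388 and 89.1 at P8). Gfap lay between 252 and 301 CPM at P8 and did not exceed 111 at any other age. Sums of granule neuron, mural and microglia markers also had their highest mean at P8 (559, 160 and 20.4 CPM). Each of these had a P8 range that overlapped that of another age. The part of glia or of these other cells in the course of Col23a1 and Col2a1 was not tested.

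Lama4, Col11a1, Col25a1 and Col8a1 fell with day from low levels. Lama4 (ENSMUSG00000019846, chr10:38965515-39110188, plus strand), the laminin alpha chain typical of vessel walls, had CPM of 0, 23.0 and 22.3 at P0, 27.2, 6.99 and 8.57 at P4, 7.46, 6.10 and 21.7 at P8, 0.552, 1.15 and 2.69 at P14, and 0, 1.69 and 2.24 at P21. All P14 and P21 samples lay below all P4 and P8 samples, and the 0 at P0 beside 2 values above 22 is the only young sample among the low ones. The slope was -0.20 ± 0.07 (edgeR, adjusted p = 0.0319), but the call was lost without any 1 of P0 replicates 2 and 3, the 3 P14 replicates and P21 replicates 1 and 2 (adjusted p from 0.0501 to 0.0675). Lama4 was also not called with day in limma-voom (adjusted p = 0.406), nor in edgeR with log2(day + 1) as the scale of time (adjusted p = 0.146).

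Col11a1 (ENSMUSG00000027966, chr3:114030540-114220718, plus strand), a minor chain of cartilage fibrils, had counts of 48, 25 and 4 at P0, 27, 47 and 11 at P4 and 1, 39 and 34 at P8. At P14 and P21 it had 8 counts in 1 library and 0 in the other 5. Its call with day (edgeR, adjusted p = 0.0237) was lost without any 1 of the P21 samples (adjusted p from 0.0607 to 0.0642). Col25a1 (ENSMUSG00000058897, chr3:130131501-130599877, plus strand) encodes a membrane-spanning collagen of neurons, and had counts of 39, 0 and 63 at P0, 62, 0 and 33 at P4, and 1 count in the 9 libraries from P8 on. Col8a1 (ENSMUSG00000068196, chr16:57624258-57754737, minus strand), a short-chain collagen of vessel walls and the cornea, had counts in 3 libraries only, 61 in P0 replicate 3 and 8 and 59 in P4 replicates 1 and 2. For Col25a1 and Col8a1 edgeR gave adjusted p = 0.00496 and 0.00427 with day. No fold change is given for Col11a1, Col25a1 and Col8a1, since they were at 0 in every library of at least 1 late age. Their slopes in the plot of slopes depend on the prior count and are not a measure of size. In limma-voom Col25a1 and Col8a1 were not called with day (adjusted p = 0.0715 and 0.220), nor was Col8a1 in DESeq2 (adjusted p = 0.0745).

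The levels of Col9a3 and Lamb1, the remaining members among the 6 with the highest RPKM, showed no called change. Col9a3 (ENSMUSG00000027570, chr2:180597790-180622189, plus strand) encodes a chain of collagen IX, which decorates cartilage fibrils. Its CPM was 31.3, 33.9 and 33.6 at P0, 15.2, 47.5 and 19.9 at P4, 40.3, 17.2 and 58.2 at P8, 40.1, 45.8 and 53.9 at P14, and 17.0, 34.9 and 30.4 at P21. All ages overlapped with at least 1 other, and the slope was 0.0036 ± 0.023 log2 units per day (edgeR, adjusted p = 0.933). Its exons share 234 bases with those of Tcfl5 on the other strand. Lamb1 (ENSMUSG00000002900, chr12:31265234-31329644, plus strand), the most abundant laminin gene per length, had CPM of 31.7, 69.2 and 35.5 at P0, 1.96, 27.0 and 35.6 at P4, 27.4, 53.8 and 76.3 at P8, 19.0, 28.2 and 50.3 at P14, and 24.4, 40.9 and 50.6 at P21. The ranges of all ages overlapped, and the slope was -0.0026 ± 0.030 (edgeR, adjusted p = 0.964).

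By class, 1 of the 10 fibrillar collagens tested fell (Col11a1), 2 of 4 collagen IV chains fell, 1 of 2 membrane-spanning collagens fell (Col25a1) and 1 of 2 tested among the other collagens fell (Col8a1). Neither of the 2 tested beaded-filament chains of collagen VI and none of the 6 tested fibril-associated collagens was called with day. Among the laminins, 1 of 5 alpha chains fell, and none of the 2 beta and 2 gamma chains tested was called. Over all genes tested 14.1% fell and 12.1% rose. In edgeR's test 10 of the 36 members had an unadjusted p under 0.05 with day, and so had 5257 of all 14293 genes, a larger share. The summed CPM of the 11 laminins was 115 ± 32.7 at P0, 149 ± 72.5 at P8 and 73.4 ± 17.8 at P21 (SD, n = 3), with overlapping ranges.

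By the order of the samples alone, all 6 samples at P14 and P21 lay below all 6 at P0 and P4 in 3 members (Col4a1, Col4a2 and Col26a1), beside 7.14% of all genes, and above them in 1 member (Col18a1), beside 8.24%. Col26a1 was not called with day (edgeR, slope -0.21 ± 0.08).

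Between neighbouring ages few members were called. From P0 to P4 edgeR called none of 36 members in either direction, beside 0.231% of all genes lower and 1.74% higher, with 5 members at an unadjusted p under 0.05; DESeq2 called 1 (Col6a1, higher) and limma-voom none. From P4 to P8, 1 member rose (Col18a1), beside 0.882%, and none fell, beside 0.252%, with 5 at an unadjusted p under 0.05. From P8 to P14, 1 fell (Col4a2), beside 1.38%, and 1 rose (Col18a1), beside 1.29%, with 8 at an unadjusted p under 0.05. From P14 to P21 edgeR, DESeq2 and limma-voom called none in either direction, beside 0.266% of all genes lower and 0.063% higher in edgeR's test, with 2 members at an unadjusted p under 0.05. The median log2 change of the members was 0.14, -0.18, -0.70 and -0.22 over the 4 steps, against 0.03, -0.02, -0.04 and -0.03 for all genes.

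The remaining 27 members tested were called by neither test. Their slopes lay between -0.21 (Col26a1) and 0.10 (Col4a5) log2 units per day, apart from that of Col16a1, which was at 0 in all P21 libraries so that its slope depends on the prior count. Their replicates scattered widely. In 20 of the 27 at least 1 time point held a library with no count beside a library with 10 counts or more. Over all 36 members this occurred in 49 of 180 gene and time point combinations (27.2%), against 10.2% for all genes tested. The biological coefficient of variation, edgeR's measure of spread between samples, had a median of 1.27 over the members and 0.57 over all genes, and the members were lower, with a median log2 CPM of 2.75 against 4.50.

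The scatter had a clear case in P4 replicate 1, picked out after its values were seen. It held 207 counts of Col1a1, 425 of Col1a2, 136 of Col6a1 and 99 of Col8a2, against at most 34, 123, 1 and 2 in the other two P4 libraries. Other collagens went the other way between P4 replicates 1 and 2, with 87 and 201 counts of Col5a1 and 0 and 58 of Col14a1. The summed CPM of Col1a1, Col1a2 and Col3a1 was 161 in that library and 5.18 and 28.6 in its replicates. The same library had the highest sum of meningeal fibroblast markers, 134 CPM, against 65.2 and 8.40. It was the only library with counts of Ogn, which made up 64.5 CPM of that sum. Dcn and Foxc1 were also higher there than in its replicates. Islr went the other way between P4 replicates 1 and 2, with 50.04 and 60.6 CPM, and was at 7.37 in replicate 3. Slc47a1 and Aldh1a2 of the same list had no count in any library. The part of meningeal cells in these values was not tested.

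Whether chains of 1 protein, or chains and markers of the cells that make them, shared their scatter was asked with 14 correlations within time points, and none passed the adjustment. The strongest was between Col1a2 and Col3a1, which lie together in fibroblast fibrils (Pearson's r = 0.75 over 15 samples, exact permutation test within time points, two-sided, p = 0.00772, adjusted 0.108; Spearman's rho = 0.75, p = 0.0139, adjusted 0.194; r = 0.75 once the 2 most distant samples were dropped). For Col4a1 with Col4a2 r was 0.37 (exact permutation test, p = 0.220, adjusted 0.567; rho = 0.29, p = 0.341, adjusted 0.793; r = 0.31 once those 2 were dropped).

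Genes that work with collagens and laminins were called in both directions, as were all genes tested (14.1% lower and 12.1% higher with day). These shares stand beside the counts of each list that follows. Among 17 partners in the basement membrane, 15 were tested, 3 fell with day and 1 rose. Agrn, the proteoglycan agrin, fell from 116 ± 45.7 CPM at P0 to 5.33 ± 2.23 at P21 (SD, n = 3; edgeR, slope -0.23 ± 0.02, adjusted p = 2.12e-06). Nid1, which ties laminin to collagen IV, fell with day after a mean of 209 ± 18.2 CPM at P8 to 13.1 ± 12.7 at P21 (edgeR, adjusted p = 0.0139), and Fbln1 also fell (slope -0.28 ± 0.06). Sparc, a collagen-binding protein, was the highest of the list and rose slightly, from 805 ± 80.2 to 1270.1 ± 225 CPM (edgeR, slope 0.02 ± 0.01, adjusted p = 0.0355).

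Among 16 receptors, 11 were tested, 1 rose and 1 fell. Itga3, the alpha subunit of a laminin-binding integrin, rose from 48.3 ± 3.43 CPM at P0 to 103 ± 13.5 at P21 (edgeR, adjusted p = 0.00527). Adgrg1, an adhesion receptor that binds collagen III, fell with day (edgeR, adjusted p = 0.0105). Its mean was 56.2 ± 12.1 CPM at P0, 92.9 ± 40.8 at P8 and 15.4 ± 7.63 at P21. Itgb1, the beta subunit that these integrins share, was the highest receptor per length and was not called (slope -0.01 ± 0.01).

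Of 32 genes of collagen synthesis and processing 29 were tested, 1 fell (P4ha3) and 3 rose (Mia3, P4ha2 and Loxl2). Mia3, which helps load collagen into vesicles, rose from 108 ± 17.6 CPM at P0 to 236 ± 22.0 at P21 (edgeR, adjusted p = 0.000298), and P4ha2, a subunit of the enzyme that hydroxylates proline in collagen, from 6.01 ± 10.4 to 39.5 ± 6.22 (edgeR, adjusted p = 0.0467). Ppib and P4hb, which help fold collagen chains and were the highest of the list per length (79.7 and 41.3 RPKM), were not called with day (edgeR, adjusted p = 0.0894 and 0.0674). Loxl2, a cross-linking enzyme, had no count in the P0 and P4 libraries and at most 4.21 CPM later. Of 14 genes of matrix breakdown 12 were tested, 4 fell (Ctsk, Timp3, Mmp16 and Timp2) and 1 rose (Timp4, an inhibitor of matrix proteases, from 225 ± 20.1 to 405 ± 108 CPM; edgeR, adjusted p = 0.0158). Timp2, the falling gene with the highest level per length, went from 110 ± 42.9 to 24.9 ± 16.3 CPM (edgeR, adjusted p = 0.00215).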

How the data were processed

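PCs were captured by laser from the mouse cerebellum, and libraries were made from total RNA with the SMARTer Ultra Low kit and the NEBNext reagents. The authors trimmed and filtered reads, aligned them to GRCm38 and counted uniquely mapping reads per Ensembl gene; the submitters' processing notes name cutadapt 1.2.1, GSNAP and HTSeq 0.5.3p9. The values deposited are raw whole-number counts per gene, 1 library per sample, without normalization. The annotation release and the strand setting are not given in the sources used here. HTSeq's tallies of reads outside genes or ambiguous between them, 18.2% to 31.0% of those listed, were left out. Nothing in the labels says whether replicates shared a litter, so p-values measure the spread between these samples.

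The members and gene lists were chosen with earlier results of these data known. Values were computed from the deposited counts: CPM with TMM library sizes, RPKM with summed exon lengths of GENCODE M21 (36723 of 38561 gene IDs matched) and the total counts. The main test was edgeR 4.0.16 (R 4.3.3): filterByExpr by time point, quasi-likelihood F tests of postnatal day and of the time point over all 14293 genes, and Benjamini-Hochberg adjustment at 0.05, with all 15 samples sharing 1 estimate of spread (common coefficient of variation 0.705). The scripts' tests were tested on simulated counts. Values are given in every sample for members called by either test and for the 6 members with the highest mean RPKM; listed related genes are named if called, at most 4 per list by slope, or among the 2 highest per length. Correlations used deviations of log2(CPM + 1) from time point means and 7776 permutations. Replicates differed by more than sampling noise (chi-square per gene between 18.4 and 56.5). Alternatives were DESeq2 1.42.0 (size factors, likelihood ratio test), limma-voom (limma 3.58.1), no filter, a replicate block, log2(day + 1), no P0, each sample left out in turn, and other scales of the correlations. Sequences came from GENCODE M21 transcripts, using the longest coding sequence that starts with ATG. Python 3.11.15, numpy 2.4.6, scipy 1.17.1, pandas 2.3.3 and matplotlib 3.10.9 were used. Positions are GRCm38. A member among the laminins is not reported here by name, but is included in the counts.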

Additional observations from a re-analysis of the deposited data

How the results depend on the processing

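With DESeq2's size factors the calls on members were the same in number. Without the filter on low counts 10 members fell and 2 rose with day. DESeq2's test found 8 members that differed between time points, 1 that rose from P0 to P4, 2 that rose from P4 to P8 and 3 that fell from P8 to P14. In limma-voom 8 differed between time points and 0 fell or rose from P8 to P14, and the 1 riser from P4 to P8 was Col27a1, not Col18a1 (adjusted p = 0.0507). With log2(day + 1) as the scale of time 3 members fell (Col4a1, Col25a1 and Col8a1). Col4a2, Col11a1 and Lama4 were not called on that scale (edgeR, adjusted p = 0.0922, 0.249 and 0.146). Replicate numbers did not pair the samples (mean r of deviations -0.004 for the same number and 0.002 for different numbers); with the replicate block 7 members fell and 1 rose with day, 6 differed between time points and 0 rose from P8 to P14. Leaving out 1 sample at a time, 4 to 7 members fell and 1 to 2 rose with day, 4 to 7 differed between time points, and 0 to 1 fell and 0 to 1 rose from P8 to P14.

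The slope of Col23a1 was 0.12 on log2(day + 1), and between -0.0344 and 0.00299 with 1 sample left out; that of Lamb1 was 0.017 in limma-voom and 0.0191 without P0, and between -0.0132 and 0.0141 with 1 sample left out; that of Col9a3 lay between -0.00389 and 0.0178. None of these passed the test, but without P0 both Col23a1 and Col2a1 fell with day (slopes -0.0655 and -0.154). The cause of these differences was not tested.

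Among the 14 correlations within time points, none passed the adjustment, and directions turned where the value was small. The collagen IV sum with meningeal markers had r = -0.0724 on log2(CPM + 0.1), and with 1 sample left out between -0.36 and 0.24; with mural markers it lay between -0.29 and 0.12. Lamb1 with Lamc1 lay between -0.502 and 0.0443, and their sum with endothelial markers between -0.17 and 0.15. The sum of Col1a1, Col1a2 and Col3a1 lay between -0.38 and 0.41 with meningeal, between -0.11 and 0.58 with endothelial and between -0.29 and 0.61 with mural markers.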
